A study of Hordeum vulgare with 32 samples.

Results

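The transcripts described here are those that the deposited annotation ties to gibberellin, the growth hormone made from ent-kaurene. A transcript was taken where the name or description of its best Arabidopsis or rice match held the word gibberellin, DELLA, ent-kaurene, GASA or GASR, which gave 42 of the 30174 transcripts in the table. By the table's own classes, 34 are gene models of high confidence and 5 of low confidence; the remaining 3 were not classed.

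They were followed in RNA sequencing libraries of the main shoot apex of barley (Hordeum vulgare), grown in long days without treatment, at Waddington stages W5.5 and W3.5, which describe how far the young spike and its florets have developed. The sample labels give the later stage as W5.5, whereas the series text and the table headers give W5.0. The lines were int-a.1 (stock GSHO 2055; headers vrs3(int-a.1)), vrs4.k (GSHO 1986), vrs1 (GSHO 1907) and int-c.5 (GSHO 2003), with 3 libraries per stage each, against their background cultivar Bowman, with 4 libraries per stage. All lines share the Bowman background, and each introgression line is named for a mutant allele of a locus that controls the fertility of the lateral spikelets. The labels do not say whether libraries came from separate plants, so the p-values measure the spread between these libraries only.

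Plastid cyclases make ent-kaurene, cytochrome P450 enzymes convert it to the first gibberellins, and GA20-oxidases and GA3-oxidases then form the bioactive hormones. GA2-oxidases inactivate them. The hormone binds the GID1 receptor, which brings the DELLA repressors, members of the GRAS protein family, to an F-box protein that marks them for degradation. GASA proteins (GASR in rice) are small, secreted, cysteine-rich proteins, many of which respond to gibberellin, and in cereals the pathway acts on stem growth and on the development of the spike.

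Abundance is given in TPM, which scales reads by transcript length and brings every library to nearly the same total. Library totals lay between 980945 and 987728 TPM, and sequencing depth is unknown. The first principal component held 24.2% of the variance, and 4 libraries scored past the median of the other stage, which were int-c.5 replicate 1 at W5.5 and, at W3.5, int-a.1 replicate 1, vrs4.k replicate 2 and Bowman replicate 4. The deposited column of int-c.5 W3.5 replicate 1 holds whole numbers only, so its low values are coarse. The other 5 columns of int-c.5 carry more decimals than those of the other lines. The sources used here do not say if these libraries were processed like the rest, so in the comparisons of int-c.5 with Bowman line and processing cannot be told apart. Markers of the apex were present: 5 transcripts matched meristem KNOX genes and summed to 63.5 to 113 TPM at W5.5 and 53.5 to 117 TPM at W3.5. Another 10 matched floral MADS genes and summed to 382 to 714 TPM at W5.5, with a median of 541 TPM, and to 226 to 682 TPM at W3.5, with a median of 359 TPM. The 4 matching green-leaf genes summed to 73.7 to 173 TPM at W5.5 and 60.7 to 114 TPM at W3.5. In bulk tissue, fewer cells of a type and less RNA per cell cannot be told apart, and the part of these markers in the differences below was not tested.

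By role, the 42 transcripts are 3 cyclases of early synthesis, 1 GA20-oxidase, 2 other dioxygenases, 3 GA2-oxidases, 1 GID1 receptor, 16 carboxylesterase-like proteins, 7 GRAS proteins and 9 GASA/GASR proteins. Names and matched loci went apart in several places. Of 17 transcripts whose rice match is named a gibberellin receptor, only AK356665 has an Arabidopsis GID1 gene as its match (GID1C, AT5G27320; rice LOC_Os05g33730). The other 16 matched carboxylesterases or other alpha/beta hydrolases, the enzyme family from which the receptor derives. Of 3 transcripts named gibberellin 20 oxidase 2, only MLOC_56462.1 matched an Arabidopsis GA20-oxidase (AT4G25420), and its rice match, LOC_Os01g66100, is the semi-dwarf locus SD1. MLOC_7933.1 matched AT1G14130, known in Arabidopsis as the auxin oxidase DAO1, and MLOC_15558.1 matched AT3G19010, a dioxygenase. The cyclase AK248484.1 matched AT1G79460 and rice LOC_Os04g52210. Of its rice descriptions, 1 reads ent-kaurene synthase and the other terpene synthase.

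The DELLA label was also not borne out by the matches. MLOC_31327.1, MLOC_42613.1 and MLOC_49841.1 carry the rice name DELLA protein SLR1, but all matched LOC_Os06g03710, and 2 of them matched AT1G63100, which is none of the 5 Arabidopsis DELLA genes. The transcript that matched the rice SLR1 locus, LOC_Os03g49990, and the Arabidopsis DELLA gene GAI is AK372064, whose descriptions hold none of the key words. It is therefore not among the 42 and is given with the further pathway genes. The 3 SLR1-named transcripts share their rice match and moved alike over the 32 libraries (Pearson r of log2(TPM + 1) 0.819, 0.725 and 0.648). How the authors' counting split reads between them is unknown and was not tested.

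No member matched a GA3-oxidase, and none of the 4 Arabidopsis GA3-oxidase loci was the match of any transcript in the table. Every transcript of the table reached at least 3.1 TPM in some library.

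Position on the barley map was given for 22 of the 42 transcripts, 6 of them on chromosome 5. Among these, 4 carboxylesterase-like transcripts lay close together on chromosome 5, with MLOC_16107.1 at map position 65.97, MLOC_59369.1 at 67.64 and MLOC_59653.1 and MLOC_59654.1 both at 69.31; the table names no unit. Their rice matches form a run on rice chromosome 9 between LOC_Os09g28630 and LOC_Os09g28750. With 3 members that have no position, 7 of the 16 carboxylesterase-like transcripts matched this run or the adjoining LOC_Os09g28620. MLOC_56462.1 (GA20-oxidase, 108.85) and MLOC_6971.1 (GRAS, 109.49) were close on chromosome 3.

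The 42 transcripts were on the whole weakly expressed. Their mean TPM over the 32 libraries had a median of 6.05, against 9.81 for all transcripts. Of the 42, 18 averaged below 5 TPM and 10 above 20 TPM. The enzymes that make and remove the active hormone were among the lowest: the GA20-oxidase MLOC_56462.1 averaged 2.72 TPM, and the 3 GA2-oxidases averaged 3.74 TPM (MLOC_6996.1), 1.86 TPM (AK364775) and 1.65 TPM (MLOC_72016.2). Of the early cyclases, MLOC_5927.6, which matched ent-copalyl diphosphate synthase, averaged 3.47 TPM, with 10.6 TPM for MLOC_14023.4 and 21.4 TPM for AK248484.1, which both matched ent-kaurene synthase. The receptor AK356665 averaged 33.4 TPM, above 82.3% of all transcripts.

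The GASA/GASR family held the most abundant members, with a median of the member means of 74.6 TPM. MLOC_62101.1, a GASR4 match, averaged 225 TPM and stood above 98.1% of all transcripts. MLOC_52406.1 (GASR8) averaged 141 TPM and MLOC_37953.3 (GASR3) 134 TPM. The same family also held MLOC_65533.1 at 2.87 TPM, so its members spanned almost the whole range of the 42. Among the carboxylesterase-like transcripts, MLOC_59369.1 averaged 99.6 TPM and MLOC_59654.1 32.6 TPM, MLOC_10654.1 averaged 6.93 TPM, and the median was 4.49 TPM. The 7 GRAS transcripts lay between 6.13 and 17.5 TPM.

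**Figure D1:**
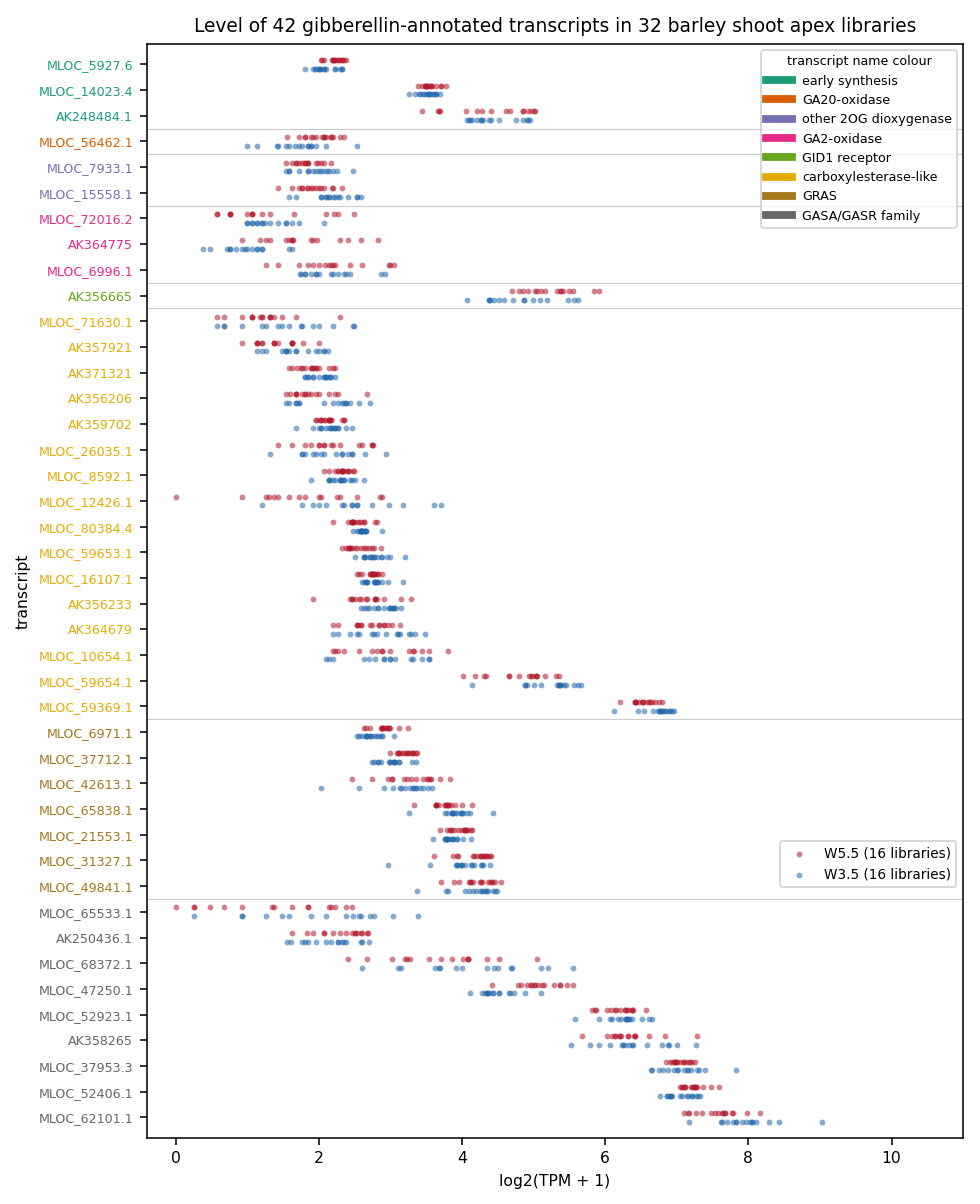
Level of each of the 42 transcripts, as log2(TPM + 1) on the horizontal axis, in the 16 libraries of W5.5 (red, upper row of each pair) and the 16 of W3.5 (blue, lower row), ordered by role and mean. GASA/GASR transcripts reach the right side of the plot, the GA20-oxidase and GA2-oxidases stay at the left, and the 2 stages overlap for every transcript.

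Spread between libraries differed widely among members. Over the 32 libraries the SD of log2(TPM + 1) was 0.11 for the ent-kaurene synthase match MLOC_14023.4, the steadiest, and 0.9 for the GASR8 match MLOC_65533.1, the most variable. MLOC_65533.1 ranged between 0 and 4.5 TPM at W5.5, with a median of 1.85 TPM, and between 0.2 and 9.5 TPM at W3.5, with a median of 3.75 TPM. Within groups the SD of MLOC_65533.1 was 0.86 and that of MLOC_14023.4 was 0.11.

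The first comparison asks how the transcripts differed between the stages. Averaged over the 5 lines, 10 of the 42 passed the test (limma across all transcripts, Benjamini-Hochberg adjusted p below 0.05), which is 23.8% of the members, where 16.6% of all 30174 transcripts passed. Of the members, 5 were higher and 5 lower at W5.5, where 11.7% of all transcripts were called higher and 4.87% lower. The transcripts higher at W5.5 were a GA2-oxidase, 2 GRAS and 2 GASA/GASR transcripts, and the transcripts lower at W5.5 were 3 carboxylesterase-like transcripts, a dioxygenase and a GASR4 match. The median log2 fold, W5.5 over W3.5, was -0.04 for the members and 0.07 for all transcripts. The split depended on the scaling: with quantile normalization 3 members were higher and 11 lower, while 6.51% of all transcripts were called higher and 9.05% lower, 15.6% in all. With upper quartile scaling 3 members were higher and 7 lower, while 7.2% of all transcripts were called higher and 8.12% lower, 15.3% in all. None of the 10 called members changed its direction under either scaling.

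Within single lines none of the 42 passed limma's adjusted threshold between stages. Stages called apart in a line below are those whose libraries did not overlap. With 3 or 4 libraries per group this also arises by chance, and its share over all transcripts was not counted. At an unadjusted p below 0.05 there were 9 members (21.4%) in int-a.1, 1 (2.38%) in vrs4.k, 3 (7.14%) in vrs1, 4 (9.52%) in int-c.5 and 13 (31%) in Bowman. By the same unadjusted rule 12.9% of all transcripts passed in int-a.1, 2.1% in vrs4.k, 7.16% in vrs1, 15.8% in int-c.5 and 22.2% in Bowman. By the adjusted rule the shares of all transcripts were 0.00994% in int-a.1 and 0 in the other 4 lines. Without the 4 libraries that scored past the median of the other stage, the average over lines called 21 members, 8 higher and 13 lower. In that fit 38.4% of all transcripts were called, and their split by direction is not given here. Those libraries were picked by their expression, by a score that was turned by stage. This count, and every fold and adjusted p given below without them, is therefore not independent of their choice.

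**Figure D2:**
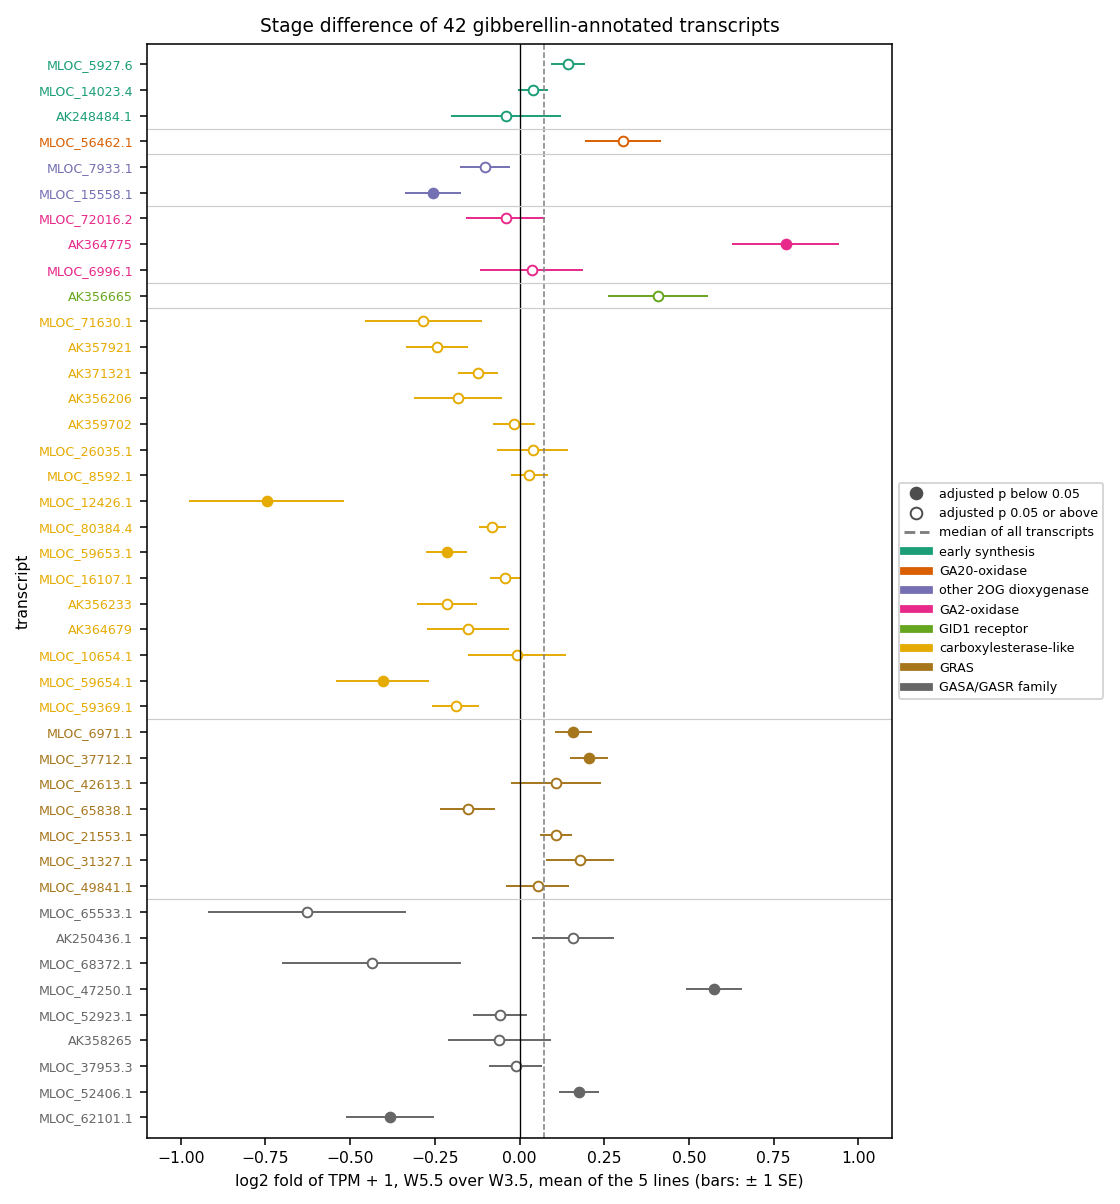
Log2 fold of TPM + 1, W5.5 over W3.5, averaged over the 5 lines, with bars of 1 SE either side, for the 42 transcripts by role; filled points have an adjusted p below 0.05, and the dashed line is the median of all transcripts at 0.07. The GA2-oxidase AK364775 (0.79) and the GASR3 match MLOC_47250.1 (0.58) lie farthest to the right, and 14 of the 16 carboxylesterase-like points lie left of 0.

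Among the enzymes of synthesis, none of the 3 cyclases and not the GA20-oxidase passed the test. MLOC_5927.6, the match of the cyclase that starts the pathway, ranged from 3.1 to 4.2 TPM at W5.5, with a median of 3.7 TPM, and from 2.5 to 4 TPM at W3.5, with a median of 3.15 TPM. Its log2 fold was 0.14 (SE 0.05) with a limma adjusted p of 0.0506. It passed in 9 of the 32 fits that left out 1 library, with adjusted p of 0.0146 to 0.0495, the smallest without int-a.1 W3.5 replicate 1. It also passed with a pseudocount of 0.1 (adjusted p = 0.0439), with a mean of at least 2 TPM (0.0493), with library weights (0.0132) and without the 4 libraries that scored past the other stage's median (log2 fold 0.19, adjusted p = 0.00723). With library weights 50% of all transcripts passed, and without the 4 libraries 38.4%. MLOC_5927.6 did not pass with quantile normalization (log2 fold 0.06, adjusted p = 0.337) or upper quartile scaling (0.10, adjusted p = 0.114). MLOC_14023.4 had nearly the same level in both stages, with medians of 10.5 TPM at each (log2 fold 0.04, SE 0.04). AK248484.1 ranged from 9.88 to 31.5 TPM at W5.5 and from 15.8 to 29.9 TPM at W3.5 (log2 fold -0.04, SE 0.16).

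The GA20-oxidase MLOC_56462.1, the match of SD1, measured 3.2, 2.7 and 3.6 TPM in the W5.5 libraries of int-a.1, against 2.7, 1 and 2.6 TPM at W3.5. In vrs1 it measured 3.9, 2.3 and 4.1 TPM at W5.5, against 2.4, 2.7 and 1.9 TPM at W3.5. In Bowman the values were 3.2, 2.9, 2.8 and 3.5 TPM at W5.5, against 1.2, 2.3, 4.8 and 2.6 TPM at W3.5. The stages overlapped in every line, while the fold was positive in 5 of 5 lines. Averaged over lines, the log2 fold was 0.30 (SE 0.11, limma adjusted p = 0.0628), and 0.39 (adjusted p = 0.0184) without the 4 libraries that scored past the other stage's median. It passed in 6 of the 32 fits that left out 1 library, with adjusted p of 0.0189 to 0.0487, the smallest without Bowman W3.5 replicate 3. It did not pass with quantile normalization (log2 fold 0.21, adjusted p = 0.149) or upper quartile scaling (0.26, adjusted p = 0.0785).

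Both dioxygenases with the name of a GA20-oxidase but another match had negative folds. MLOC_15558.1 fell by 0.25 on the log2 scale at W5.5 (SE 0.08, limma adjusted p = 0.0378). It ranged from 1.7 to 4 TPM at W5.5, with a median of 2.75 TPM, and from 2 to 5 TPM at W3.5, with a median of 3.5 TPM. Its stages did not overlap in int-a.1, vrs1 and Bowman, and its fold was positive in 1 line. The call was lost in 14 of the 32 fits that left out 1 library. MLOC_7933.1 had a log2 fold of -0.10 (SE 0.07) and did not pass.

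Of the 3 GA2-oxidases, which inactivate the hormone, AK364775 was higher at W5.5. It measured 6.1, 1.5 and 1.9 TPM in the W5.5 libraries of int-a.1, against 0.4, 1.3 and 1.2 TPM at W3.5. In vrs4.k it measured 1.4, 2.7 and 0.9 TPM at W5.5, against 0.3, 2 and 0.7 TPM at W3.5. In vrs1 it measured 2.1, 2 and 4.3 TPM at W5.5, against 0.8, 1.3 and 1.2 TPM at W3.5. Up to here the stages were apart in int-a.1 and vrs1 and overlapped in vrs4.k.

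In int-c.5, AK364775 measured 1.27, 2.92 and 2.12 TPM at W5.5, against 1, 0.96 and 0.65 TPM at W3.5. In Bowman it measured 2.8, 3.9, 2.1 and 5 TPM at W5.5, against 0.7, 0.9, 1.1 and 2.1 TPM at W3.5. The stages met at 2.1 TPM in Bowman and were apart in int-c.5 as deposited. There the 1 TPM at W3.5 stands in the column of whole numbers, close to 1.27 TPM at W5.5, so the separation is uncertain. Averaged over the 5 lines the log2 fold of AK364775 was 0.79 (SE 0.16, limma adjusted p = 0.00375), positive in 5 of 5 lines with a range of 0.45 to 1.01. It kept its call without any 1 of the 32 libraries, with folds of 0.69 to 0.85. At its low level a difference of 1 TPM weighs heavily, and a filter at a mean of 2 TPM removed it from the test.

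Neither of the other GA2-oxidases passed the test. MLOC_6996.1, the match of GA2OX8, an enzyme that in Arabidopsis acts on early gibberellins, ranged from 1.4 to 7.31 TPM at W5.5 and from 2.33 to 6.6 TPM at W3.5 (log2 fold 0.04, SE 0.15, limma adjusted p = 0.884). MLOC_72016.2, which matched the same Arabidopsis GA2OX1 gene as AK364775 but another rice locus, had a log2 fold averaged over lines of -0.04 (SE 0.12).

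Behind that average, MLOC_72016.2 had folds of opposite sign in 2 lines. It measured 0.5, 0.7 and 1.1 TPM in the W5.5 libraries of int-a.1, against 3.2, 1.9 and 2.1 TPM at W3.5, and every W5.5 library was below every W3.5 library. In int-c.5 it measured 2.16, 4.65 and 3.64 TPM at W5.5, against 1, 1.37 and 1.2 TPM at W3.5, and every W5.5 library was above. The log2 folds were -0.94 (SE 0.27, limma adjusted p = 0.139) in int-a.1 and 1.00 (SE 0.27, adjusted p = 0.195) in int-c.5. The interaction with Bowman's stage difference had an unadjusted p of 0.00251 for int-a.1 and 0.0423 for int-c.5 and an adjusted p of 0.824 and 1, and a direct test of int-a.1 against int-c.5 was not made. In Bowman itself MLOC_72016.2 was split within a group, with 1.1, 3.3, 3.8 and 1.1 TPM at W5.5, against 1.9, 2.3, 1.3 and 1.1 TPM at W3.5.

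**Figure D3:**
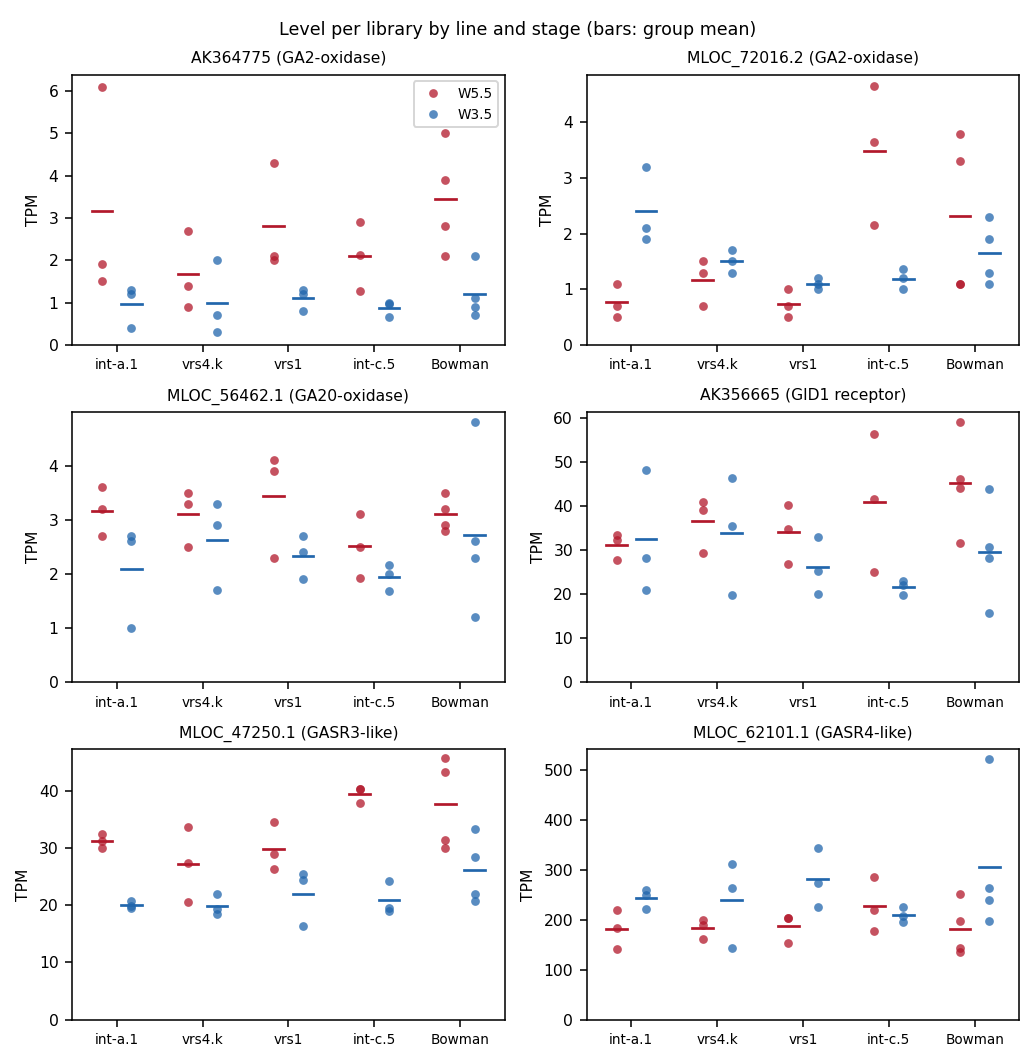
TPM in each library (points) and group mean (bars) for 6 transcripts, by line on the horizontal axis, with W5.5 in red left of W3.5 in blue. AK364775 and MLOC_47250.1 have higher means at W5.5 in each of the 5 lines, and MLOC_72016.2 is lower at W5.5 in int-a.1 and higher in int-c.5.

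The receptor AK356665 ranged from 24.9 to 59.1 TPM at W5.5, with a median of 37 TPM, and from 15.8 to 48.2 TPM at W3.5, with a median of 26.7 TPM. Its log2 fold was 0.41 (SE 0.15) with a limma adjusted p of 0.0582, above the threshold. In int-c.5 it measured 24.9, 56.3 and 41.5 TPM at W5.5, against 23, 22 and 19.9 TPM at W3.5, where the stages were apart. In int-a.1 it measured 33.3, 27.8 and 32.2 TPM at W5.5, against 48.2, 20.8 and 28.1 TPM at W3.5, and the stages overlapped, as they did in vrs4.k, vrs1 and Bowman. The highest W3.5 values, 48.2 TPM in int-a.1 and 46.3 TPM in vrs4.k, belong to libraries that scored past the other stage's median. Without the 4 such libraries the log2 fold was 0.59 (adjusted p = 0.00304), in a fit that called 38.4% of all transcripts. The receptor also passed in 8 of the 32 fits that left out 1 library, with adjusted p of 0.0217 to 0.0473, the smallest without int-a.1 W3.5 replicate 1. It did not pass with quantile normalization (log2 fold 0.36, adjusted p = 0.0676) or upper quartile scaling (0.35, adjusted p = 0.0685).

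The carboxylesterase-like transcripts, whose products belong to a broad family of hydrolases, were called lower in 3 of 16 cases and higher in none. Of all transcripts, 4.87% were called lower and 11.7% higher. Their log2 folds were negative in 14 of the 16, and their median was -0.17, against 0.07 for all transcripts. With quantile normalization all 16 were negative and 9 were called lower, where 9.05% of all transcripts were called lower. With upper quartile scaling all 16 were negative and 5 were called lower, where 8.12% of all transcripts were called lower. Without the 4 libraries that scored past the other stage's median, 9 of the 16 were called lower, where 38.4% of all transcripts were called in either direction. MLOC_59653.1 ranged from 4 to 6.3 TPM at W5.5, with a median of 4.75 TPM, and from 4.7 to 8.2 TPM at W3.5, with a median of 5.76 TPM. It fell by 0.22 on the log2 scale (SE 0.06, limma adjusted p = 0.0207), with stages apart in vrs1 and int-c.5, and it kept its call without any 1 library.

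MLOC_59654.1, at the same map position, ranged from 15.2 to 39.9 TPM at W5.5, with a median of 30 TPM, and from 16.6 to 49.9 TPM at W3.5, with a median of 40.1 TPM. It fell by 0.40 on the log2 scale (SE 0.14, limma adjusted p = 0.0456), with stages that overlapped in each line. This call lay close to the threshold and was lost in 22 of the 32 fits that left out 1 library. The neighbour MLOC_59369.1, the most abundant of the family, had medians of 90.9 TPM at W5.5 and 109 TPM at W3.5 and a log2 fold of -0.19 (SE 0.07, adjusted p = 0.0611). It passed in 4 of the 32 fits that left out 1 library, with quantile normalization (adjusted p = 0.0496), with upper quartile scaling (0.0344), with library weights (0.000186) and without the 4 libraries that scored past the other stage's median (-0.27, adjusted p = 0.000632). Of all transcripts, 50% passed with library weights and 38.4% without the 4 libraries. MLOC_59369.1 did not pass with a pseudocount of 0.1 (adjusted p = 0.0635) or a mean of at least 2 TPM (0.0596).

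The remaining carboxylesterase-like transcripts each averaged below 7 TPM, and none but MLOC_12426.1 was called. AK357921 ranged from 0.9 to 3 TPM at W5.5 and from 1.2 to 3.36 TPM at W3.5 (log2 fold -0.24, SE 0.09, limma adjusted p = 0.0657). AK356233 ranged from 2.8 to 8.8 TPM at W5.5 and from 5 to 7.9 TPM at W3.5 (-0.21, SE 0.09, adjusted p = 0.0915). The 2 positive log2 folds of the group were those of MLOC_8592.1 (0.03, SE 0.05) and MLOC_26035.1 (0.04, SE 0.11).

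MLOC_12426.1, a low-confidence model, fell by 0.75 on the log2 scale at W5.5 (SE 0.23, limma adjusted p = 0.0309), with negative folds in 5 of 5 lines. It ranged from 0 to 6.4 TPM at W5.5, with a median of 2.4 TPM, and from 1.3 to 12.1 TPM at W3.5, with a median of 4.5 TPM. Its stages were apart in int-a.1 only, and the call was lost with a pseudocount of 0.1 and without any of 7 single libraries. The 7 members that match the run on rice chromosome 9 had pairwise Pearson r of log2(TPM + 1) over the 32 libraries between -0.04 and 0.63, with a median of 0.38. These values share libraries, and whether the transcripts share reads was not tested.

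Among the GRAS transcripts, 2 of 7 were called higher at W5.5 and none lower, where 11.7% of all transcripts were called higher and 4.87% lower. GRAS proteins are plant transcriptional regulators, and the DELLA repressors are one branch of them. MLOC_37712.1, named for a rice gibberellin-responsive GRAS protein, measured 9.4, 9 and 8.9 TPM in the W5.5 libraries of int-a.1, against 7.7, 6.1 and 7.3 TPM at W3.5. In vrs1 it measured 7.7, 7.5 and 8.3 TPM at W5.5, against 7, 7.4 and 6.1 TPM at W3.5. Its stages were apart in int-a.1, vrs1 and int-c.5 and overlapped in vrs4.k and Bowman. The log2 fold was 0.21 (SE 0.06, limma adjusted p = 0.0188), positive in 5 of 5 lines, and was called without any 1 library.

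MLOC_6971.1, a match of Arabidopsis SCARECROW-like 1 with the same kind of rice name, ranged from 5.2 to 8.5 TPM at W5.5 and from 4.8 to 7.3 TPM at W3.5. Its log2 fold was 0.16 (SE 0.05, limma adjusted p = 0.0451). Its call was lost with quantile normalization, with upper quartile scaling and in 21 of the 32 fits that left out 1 library.

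The 3 SLR1-named transcripts did not pass and overlapped between stages. MLOC_31327.1 ranged from 11.2 to 20.3 TPM at W5.5 and from 6.8 to 20 TPM at W3.5 (log2 fold 0.18, SE 0.10). MLOC_42613.1 ranged from 4.5 to 13.2 TPM at W5.5 and from 3.1 to 11 TPM at W3.5 (log2 fold 0.11, SE 0.13). MLOC_49841.1 ranged from 12.1 to 22.3 TPM at W5.5 and from 9.4 to 21.4 TPM at W3.5 (log2 fold 0.05, SE 0.09). MLOC_21553.1, a GRAS protein named a gibberellin response modulator, had a log2 fold of 0.11 (SE 0.05, adjusted p = 0.101). MLOC_65838.1, with the same kind of rice name, had the only negative fold of the GRAS group (-0.15, SE 0.08, limma adjusted p = 0.176). That fold was negative in 5 of 5 lines, and the stages were apart in int-a.1 and vrs1. It was called lower with library weights (-0.19, adjusted p = 0.00778), where 50% of all transcripts passed.

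The GASA/GASR family was divided, with 2 of 9 called higher, 1 called lower and 6 not called, where 11.7% of all transcripts were called higher and 4.87% lower. MLOC_47250.1, a GASR3 match, measured 30.1, 32.5 and 31.2 TPM in the W5.5 libraries of int-a.1, against 20.7, 19.8 and 19.6 TPM at W3.5. In int-c.5 it measured 40.3, 37.8 and 40.4 TPM at W5.5, against 19, 24.3 and 19.5 TPM at W3.5. In Bowman it measured 31.5, 45.8, 43.3 and 30.1 TPM at W5.5, against 22, 33.4, 28.4 and 20.7 TPM at W3.5. The stages were apart in int-a.1, vrs1 and int-c.5, and overlapped in vrs4.k and Bowman.

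Averaged over lines, MLOC_47250.1 had the smallest adjusted p of the 42 (log2 fold 0.58, SE 0.08, limma adjusted p = 0.000501), with folds of 0.41 to 0.89 in 5 of 5 lines. It kept its call without any 1 library, with folds of 0.54 to 0.61. MLOC_37953.3, which matched the same rice locus, averaged 132 TPM at W5.5 with a log2 fold of -0.01 (SE 0.08, adjusted p = 0.928), and the 2 transcripts correlated by r = 0.11 over the 32 libraries.

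MLOC_62101.1, the GASR4 match and the most abundant member, was lower at W5.5. It measured 220, 184 and 142 TPM in the W5.5 libraries of int-a.1, against 249, 220 and 260 TPM at W3.5. In vrs1 it measured 204, 203 and 153 TPM at W5.5, against 274, 343 and 225 TPM at W3.5. In Bowman it measured 197, 251, 143 and 136 TPM at W5.5, against 239, 264, 521 and 197 TPM at W3.5. The stages were apart in int-a.1 and vrs1, and Bowman W3.5 held the single highest library. The log2 fold was -0.38 (SE 0.13, limma adjusted p = 0.0446), and the call was lost with quantile normalization and in 20 of the 32 fits that left out 1 library.

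MLOC_52406.1, the GASR8 match that ranks second in the family, ranged from 131 to 191 TPM at W5.5 and from 108 to 159 TPM at W3.5. Its log2 fold was 0.18 (SE 0.06, limma adjusted p = 0.0446), positive in 5 of 5 lines. Its call was lost with quantile normalization, with upper quartile scaling, without the 4 libraries that scored past the other stage's median, and in 21 of the 32 fits that left out 1 library. The largest negative folds of the family, -0.63 (SE 0.29) for MLOC_65533.1 and -0.44 (SE 0.26) for MLOC_68372.1, did not pass, with adjusted p of 0.127 and 0.239.

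The 3 remaining members of the family were not called. MLOC_52923.1 (GASR9) had medians of 75.1 TPM at W5.5 and 77.4 TPM at W3.5, and AK358265 (GASR7) had medians of 75.9 TPM at W5.5 and 80.7 TPM at W3.5. AK250436.1 (GASR10) had medians of 4.35 TPM at W5.5 and 3.65 TPM at W3.5 (log2 fold 0.16, SE 0.12, limma adjusted p = 0.361).

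The further pathway genes were 16 transcripts outside the 42. Their Arabidopsis match is a known gene of gibberellin synthesis, inactivation, perception or response, or a meristem KNOX gene. The 5 KNOX matches are those summed above as markers of the apex, and none of them passed between stages. Between stages 4 of the 16 passed (25%), 3 higher and 1 lower, beside the 16.6% of all transcripts, and their median log2 fold was 0.16. MLOC_5757.7, a match of the gibberellin-inactivating cytochrome CYP714A1, ranged from 2.7 to 3.94 TPM at W5.5 and from 1.9 to 3.4 TPM at W3.5 (log2 fold 0.29, SE 0.07, limma adjusted p = 0.00841). AK375052, whose rice match is GAMYB, a transcription factor through which gibberellin acts in cereal aleurone and anthers, ranged from 2.2 to 3.75 TPM at W5.5 and from 1.57 to 3.4 TPM at W3.5 (0.29, SE 0.07, adjusted p = 0.0121). MLOC_68598.4, a match of the DELLA-bound factor PIF3, had a log2 fold of 0.29 (SE 0.09, adjusted p = 0.0335). The other CYP714A1 matches were not called and went opposite ways. MLOC_52170.14 averaged 3.58 TPM at W5.5 and 2.72 TPM at W3.5, while AK252161.1 averaged 2.79 TPM at W5.5 and 3.12 TPM at W3.5.

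AK354396, a match of SLY1, the F-box protein that removes DELLA repressors, was lower at W5.5. It ranged from 0.6 to 2.9 TPM at W5.5, with a median of 2.09 TPM, and from 2.1 to 3.54 TPM at W3.5, with a median of 3 TPM (log2 fold -0.38, SE 0.09, limma adjusted p = 0.00778). Its stages overlapped over all lines and were apart in int-c.5 as deposited. There the lowest W3.5 value, 3 TPM, stands in the column of whole numbers, close to the highest W5.5 value of 2.85 TPM. The DELLA transcript AK372064 ranged from 40.3 to 67.6 TPM at W5.5 and from 37 to 68.6 TPM at W3.5, with a log2 fold of -0.09 (SE 0.07, adjusted p = 0.398). Another GAI match, MLOC_73617.2, whose rice match is LOC_Os01g45860, had a log2 fold of -0.00 (SE 0.05, adjusted p = 0.989).

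The second comparison asks whether the introgression lines differed from Bowman. None of the 42 transcripts passed limma's adjusted threshold in any of the 12 line comparisons, at either stage or averaged over both. At W5.5, the shares of all transcripts called were 0.709% in int-a.1, 0.696% in vrs4.k, 0.325% in vrs1 and 0.106% in int-c.5. At W3.5 they were 0.653% in int-a.1, 0.653% in vrs4.k, 0.341% in vrs1 and 0.0994% in int-c.5. Averaged over both stages they were 2.13% in int-a.1, 1.54% in vrs4.k, 0.497% in vrs1 and 0.345% in int-c.5. With such shares, a count of 0 among 42 is near the background.

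At an unadjusted p below 0.05 and at W5.5, 4 of the 42 passed in int-a.1 and 11.8% of all transcripts, 4 in vrs4.k and 10.1%, 2 in vrs1 and 4.3%, and 3 in int-c.5 and 5.35%. At W3.5, 3 passed in int-a.1 and 8.75% of all transcripts, 1 in vrs4.k and 9.91%, 0 in vrs1 and 5.18%, and 1 in int-c.5 and 8.05%. Averaged over both stages, 4 (9.52%) passed in int-a.1 and 13% of all transcripts, 2 (4.76%) in vrs4.k and 12.3%, 7 (16.7%) in vrs1 and 6.83%, and 4 (9.52%) in int-c.5 and 11%. The interactions of line and stage called none of the 42 and 0% of all transcripts; at an unadjusted p below 0.05 they held 2 members (4.76%) for int-a.1, 4 (9.52%) for vrs4.k, 0 for vrs1 and 2 (4.76%) for int-c.5, where 5.85%, 6.22%, 2.5% and 2.91% of all transcripts passed in the same order of lines. The 16 further pathway genes had no call against Bowman either, with 0 to 2 at an unadjusted p below 0.05 in each comparison. The line comparisons share their Bowman libraries.

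The transcripts nearest to a call are named with their values known. Some of their groups did not overlap with Bowman. The share of all transcripts with such groups was not counted, so these separations are descriptions of single transcripts only. MLOC_80384.4, a carboxylesterase-like transcript, measured 6, 5.9 and 5.2 TPM in the W5.5 libraries of vrs4.k, against 4.9, 3.6, 4.5 and 4.3 TPM in Bowman. The groups were apart, with a log2 fold of 0.34 (SE 0.09, limma adjusted p = 0.0795). At W3.5 it measured 6.4, 4.9 and 5.1 TPM in vrs4.k, against 4.6, 5, 5.3 and 5 TPM in Bowman, and the groups overlapped. Averaged over both stages the log2 fold was 0.22 (SE 0.06, adjusted p = 0.0691). At W5.5 the adjusted p was 0.0141 with quantile normalization and 0.0392 with upper quartile scaling.

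MLOC_26035.1, another transcript of the rice chromosome 9 run, measured 1.7, 2.7 and 2.5 TPM in the W5.5 libraries of int-a.1, against 4.9, 3, 3.9 and 3 TPM in Bowman. It measured 5.08, 5.68 and 5.74 TPM in int-c.5 at W5.5, so that the int-a.1 libraries lay below and the int-c.5 libraries above every Bowman library. Averaged over both stages its log2 fold was -0.50 (SE 0.16, limma adjusted p = 0.121) in int-a.1. The GA2-oxidase MLOC_72016.2 had log2 folds against Bowman at W5.5 of -0.82 (SE 0.25) in int-a.1, -0.53 (SE 0.25) in vrs4.k, -0.84 (SE 0.25) in vrs1 and 0.50 (SE 0.25) in int-c.5, with adjusted p of 0.161, 0.486, 0.403 and 0.892. Only in vrs1 were its libraries all below those of Bowman at that stage.

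The GASR3 match MLOC_47250.1, which was higher at W5.5, had negative log2 folds against Bowman when both stages were averaged: -0.29 (SE 0.13) in int-a.1, -0.41 (SE 0.13) in vrs4.k, -0.27 (SE 0.13) in vrs1 and -0.10 (SE 0.13) in int-c.5. The smallest limma adjusted p of these was 0.124, in vrs4.k. MLOC_37953.3, the other GASR3 match, measured 99.2, 127 and 107 TPM in int-a.1 at stage W3.5, against 168, 137, 226 and 112 TPM in Bowman. Its groups overlapped, with a log2 fold of -0.49 (SE 0.17, adjusted p = 0.282).

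Among the SLR1-named transcripts, MLOC_49841.1 measured 19.5, 21 and 20 TPM in vrs4.k and 22.3, 18.4 and 20.4 TPM in vrs1 at stage W5.5, against 16.8, 14.6, 12.1 and 18 TPM in Bowman. Both lines lay above every Bowman library, with log2 folds of 0.38 (SE 0.20) in vrs4.k and 0.39 (SE 0.20) in vrs1 and limma adjusted p of 0.527 and 0.99. The GASR9 match MLOC_52923.1 measured 79.2, 93.6 and 82.3 TPM in int-a.1 at stage W5.5, against 76.9, 55.3, 64.3 and 57.7 TPM in Bowman. These groups were apart as well (log2 fold 0.42, SE 0.17, adjusted p = 0.328).

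**Figure D4:**
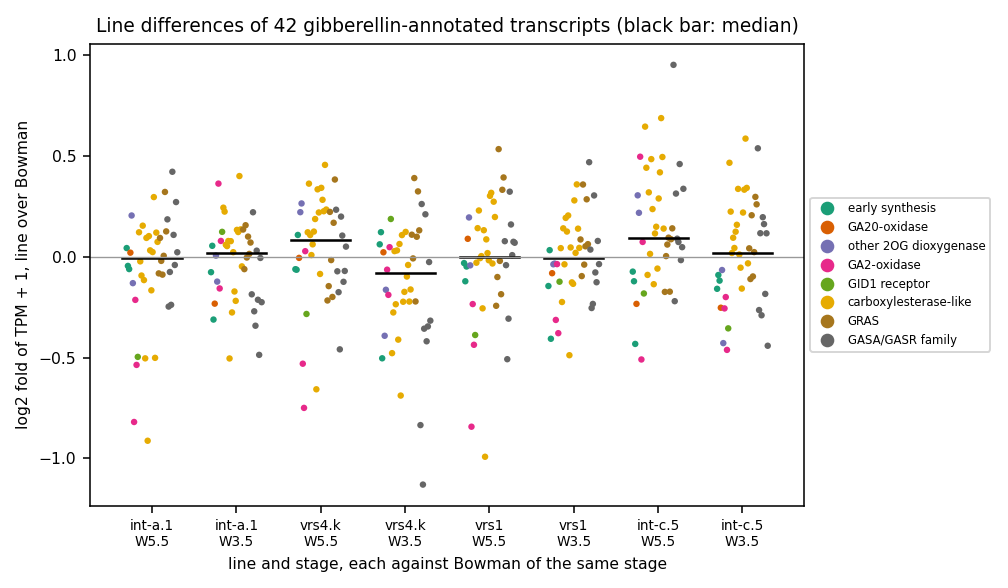
Log2 fold of TPM + 1 of each of the 42 transcripts (points, coloured by role) in each introgression line over Bowman of the same stage, with the median as a black bar. The medians lie between -0.08 (vrs4.k W3.5) and 0.09 (int-c.5 W5.5), and no point passed the adjusted threshold.

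The enzymes and the receptor had no call against Bowman. Over the 8 single-stage comparisons, all 42 log2 folds lay between -1.13 and 0.95. The authors' deposited table gives its own folds and false discovery rates for the same 12 comparisons, and none of the 42 had a rate below 0.05 there. In the authors' deposited table the smallest rate was 0.107, for MLOC_80384.4 in vrs4.k. It stood both at the later stage (log2 fold 0.45) and in the comparison not split by stage (log2 fold 0.275).

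Likeness was described by Pearson r over the 10 group means of log2(TPM + 1) among the 24 members that averaged at least 5 TPM; these points share the 2 stages and the 5 lines. The receptor AK356665 was most like the GRAS transcript MLOC_6971.1 (r = 0.75). Among the SLR1-named transcripts, MLOC_31327.1 was most like the GASR8 match MLOC_52406.1 (r = 0.69), and MLOC_42613.1 and MLOC_49841.1 were most like each other (r = 0.72).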

How the data were processed

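The authors deposited 1 table for the series. Per the file headers the 8 Bowman columns are raw counts, and those of the other 24 libraries name no unit. The deposited values of all but 1 column are not whole, and library totals lie between 980945 and 987728, so they were treated as TPM. In the deposited column of int-c.5 W3.5 replicate 1 the TPM are rounded to whole numbers, and this column was recorded as a score. Per the file headers, log2 fold changes, p-values and false discovery rates of the authors stand in the same table and are used only where named. BWA, Salmon, limma and GATK are listed by the submitters' processing notes; their roles and the genome build are not given in the sources used here. Since columns name a line and stage but no sample, replicate numbers are only names. TPM keeps no depth, so no counting intervals are given.

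All 30174 transcripts and 32 libraries were fitted together with limma 3.58.1 (R 4.3.3; lmFit, contrasts.fit and eBayes) on log2(TPM + 1). The 10 groups were the combinations of line and stage, no covariate was used, and 22 comparisons were drawn. Values were prepared with Python 3.11.15. A transcript was called at a Benjamini-Hochberg adjusted p below 0.05 over all transcripts. Log2 folds understate the change of low transcripts, and SE is that of the fold. The scripts were tested on simulated data. Alternatives were a pseudocount of 0.1, a mean of at least 2 TPM, quantile normalization, upper quartile scaling, only the groups compared, limma's library weights, leaving out the 4 libraries that scored past the other stage's median, and leaving out each library in turn.

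The members, role groups, further pathway genes and tests were chosen with earlier results of these data known. Named transcripts are every called member, the 3 most abundant of each role, every member that matches a GA20-, GA3- or GA2-oxidase, GID1 or DELLA, and every called further pathway gene; others are named with their values known. None of the transcript identifiers (0 of 30174) matched the RefSeq gene table, so names are those of the deposited matches and no sequences are shown.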

Additional observations from a re-analysis of the deposited data

Results flagged for a closer look

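In groups of 4 libraries, 1 value stood far from the other 3 in 4 of the 84 member-by-group sets looked at, where chance gives about 1 in 20. In Bowman W5.5, the GRAS transcript MLOC_21553.1 had its far value at 16.6 TPM, the highest, in replicate 4. In Bowman W3.5, replicate 3 held the other 3: the GRAS transcript MLOC_65838.1 at 20.6 TPM, the highest, the ent-kaurene synthase match AK248484.1 at 16.3 TPM, the lowest, and the carboxylesterase-like MLOC_12426.1 at 12.1 TPM, the highest. Without that library the stage difference of MLOC_12426.1 was -0.68 on the log2 scale (limma adjusted p = 0.0353).

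The GA2-oxidase MLOC_72016.2 was flagged because every library moved one way in int-a.1 and the opposite way in int-c.5. It averaged 0.77 ± 0.31 TPM at W5.5 and 2.40 ± 0.70 TPM at W3.5 in int-a.1, and 3.48 ± 1.26 TPM at W5.5 and 1.19 ± 0.18 TPM at W3.5 in int-c.5 (SD, n = 3 each). The difference between these 2 lines was not tested.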

How the results depend on the processing

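No paired analysis was possible because the labels give no replicate numbers and the columns are not tied to samples. No called member changed direction under any alternative. Between stages, averaged over lines, 10 members were called, against 24 with library weights (background 50%), 21 without the 4 libraries apart from their stage, and 4 to 17 without 1 library each. Of all transcripts, 16.6% were called in the fit with 10 members and 38.4% in the fit with 21. For the fits without 1 library the share of all transcripts is not given here. Whether the counts of members in those fits only followed that share was not tested. The count was 17 without vrs4.k W3.5 replicate 2. It was 4 without replicate 3 of vrs1 W5.5, replicate 1 of vrs4.k W3.5, replicate 2 of vrs4.k W5.5 or replicate 2 of int-c.5 W3.5. It was 5 without replicate 2 of int-a.1 W3.5, replicate 1 of int-a.1 W5.5 or replicate 3 of vrs4.k W5.5. It was 6 without replicates 2 or 4 of Bowman W5.5, or replicate 3 of int-a.1 W3.5, vrs4.k W3.5 or int-c.5 W3.5, or replicate 1 of vrs1 W5.5. The calls of MLOC_37712.1, MLOC_47250.1, MLOC_59653.1 and AK364775 held under every alternative in which they were tested. Within lines the stage counts, 0 in the fit reported, were 17 in int-a.1, 1 in vrs4.k, 6 in int-c.5 and 2 in Bowman with library weights (background 25.5%, 3.77%, 26.3% and 5.48% in that order), and 2 in int-c.5 and 8 in Bowman without the 4 libraries (background 2.81% and 10.6%). Against Bowman, also 0 in the fit reported, library weights gave 3 in int-a.1 at W3.5, 2 in vrs4.k at W3.5, 3 in int-a.1 and 2 in vrs4.k averaged over stages (background 9.07%, 6.29%, 10.3% and 6.53%). Quantile normalization and upper quartile scaling each gave 1 in vrs4.k at W5.5, and quantile normalization 1 in vrs4.k averaged over stages, MLOC_80384.4 each time. Leaving out 1 library gave 0 to 1 in int-a.1 at W3.5 (1 without Bowman W3.5 replicate 4), in vrs4.k at W5.5 (1 without Bowman W5.5 replicate 1) and in vrs4.k averaged over stages (1 without replicate 1 of Bowman W5.5 or replicate 2 of vrs4.k W3.5), and 0 in the other comparisons that were 0. For the counts against Bowman under the 2 scalings and without 1 library, the share of all transcripts is not given here. The causes were not tested. Depth is unknown, and at the low TPM of the oxidases single-library values are coarse.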
